A study of Mus musculus with 8 samples.

Results

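The MYC, MAX and MXD family genes of the embryonic mouse kidney are described here: Mycn, Myc and Mycl, their shared partner Max, the MAX-binding repressors Mxd1, Mxi1, Mxd3, Mxd4 and Mnt, and Mga. These 10 genes, of 22180 measured, were selected on 2 grounds. They belong to 1 gene family, and in these same arrays Mycn had been seen to be lower in the mutant kidneys (log2 fold change -1.13) while Myc had not passed the test (-0.21). Because that contrast chose them, the differences of the 10 genes between the groups are given below as a description, with a standard error (SE) and a 95% interval and with no p-value. Where a member is said to pass the threshold, an adjusted p below 0.05 in limma, this too describes the contrast that chose it and is no test. Each gene was represented by the probe set of 1 symbol with the highest mean over all 8 arrays, and none of the 10 was left out by a filter.

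RNA of whole kidneys at E14.5 (E, embryonic day) was compared between 4 Grb2 UB-cKO embryos, called Grb2_cKO here, and 4 wild-type controls. Grb2 codes for an adaptor between receptor tyrosine kinases, RET among them, and RAS and ERK signalling, and UB-cKO is a conditional knockout in the ureteric bud, the epithelium that branches into the collecting ducts. The sources used here do not give the Cre line. All embryos came from 1 litter and each array holds the pooled left and right kidneys of 1 embryo, so the replicates are separate animals.

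MYC proteins bind DNA as pairs with MAX at the E-box letters CACGTG and activate genes of ribosome assembly, nucleotide synthesis and cell growth. MXD proteins, MXI1 and MNT compete for MAX at the same letters and recruit the SIN3 histone deacetylase complex, which represses transcription, and MGA brings MAX into a separate Polycomb-type repressor complex. In the developing kidney Mycn and Myc are known for their part in the growth of the ureteric bud and of the nephron progenitors around its tips.

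The proximal promoters of 5 members are shown because they belong to the 4 genes whose differences passed the threshold (Mycn, Mycl, Mxd1 and Mxd4) or hold an E-box (Mxd4 and Mnt). Each is the 250 bases before the transcription start in RefSeq, build GRCm38.p6, printed 5′ to 3′ on the gene's own strand: Mycn at chr12:12941837-12942086 on the minus strand, Mycl at chr4:122995681-122995930 on the plus strand, Mxd1 at chr6:86669160-86669409 on the minus strand, Mxd4 at chr5:34187711-34187960 on the minus strand and Mnt at chr11:74830674-74830923 on the plus strand. Capitals mark CACGTG in Mxd4 and Mnt and the letters TTTGGCGC, a form of the E2F motif, in Mycn.
Mycn: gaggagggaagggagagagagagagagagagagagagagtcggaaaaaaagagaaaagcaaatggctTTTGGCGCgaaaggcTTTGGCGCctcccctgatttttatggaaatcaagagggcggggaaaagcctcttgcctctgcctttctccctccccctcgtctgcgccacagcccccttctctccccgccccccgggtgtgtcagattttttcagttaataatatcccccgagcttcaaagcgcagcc
Mycl: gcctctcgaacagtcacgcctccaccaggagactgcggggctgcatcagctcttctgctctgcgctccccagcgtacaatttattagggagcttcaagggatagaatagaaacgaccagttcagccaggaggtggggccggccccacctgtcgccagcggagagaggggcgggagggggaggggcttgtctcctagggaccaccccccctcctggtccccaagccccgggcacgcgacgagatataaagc
Mxd1: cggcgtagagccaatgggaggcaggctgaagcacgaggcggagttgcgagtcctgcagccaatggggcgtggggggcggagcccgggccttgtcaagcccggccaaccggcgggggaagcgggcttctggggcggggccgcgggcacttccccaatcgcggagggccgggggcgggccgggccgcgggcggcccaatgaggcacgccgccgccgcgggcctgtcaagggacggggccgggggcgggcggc
Mxd4: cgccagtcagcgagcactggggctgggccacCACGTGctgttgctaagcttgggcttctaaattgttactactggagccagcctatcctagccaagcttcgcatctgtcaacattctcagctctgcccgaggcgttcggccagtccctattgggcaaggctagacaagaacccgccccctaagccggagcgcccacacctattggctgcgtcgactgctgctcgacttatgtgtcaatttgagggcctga
Mnt: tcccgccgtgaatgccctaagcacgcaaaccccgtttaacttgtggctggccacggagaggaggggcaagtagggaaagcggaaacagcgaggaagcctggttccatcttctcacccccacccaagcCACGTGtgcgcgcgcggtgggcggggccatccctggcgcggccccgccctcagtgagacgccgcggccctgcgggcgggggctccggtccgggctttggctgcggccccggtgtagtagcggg
Of the members, 9 had an entry in the promoter table, with 11 windows in all. The E-box reads the same on both strands and stood in 2 of the 9, in Mxd4 with its first base 219 bases before the start and in Mnt 123 bases before it. It stood in 6.02% of all 32851 windows of this length, and in 7.83% of the 16990 measured genes that had one. The E2F letters, searched on both strands and chosen after the Mycn sequence had been seen, stood there at 183 and 168 bases before the start, and in no other member. They stood in 0.417% of all windows and in 0.659% of measured genes. The GC box GGGCGG, searched on both strands, was in 8 of the 9 members, beside 46.2% of measured genes and 32.7% of all windows; on the pathway lists it was also common, as in 75.0% of the activated targets and 81.2% of the proliferation genes. The ETS letters CCGGAAGT, searched on both strands, were in 0 of the 9, beside 4.23% of measured genes and 2.88% of all windows. A match is a run of letters in this window only.

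The authors' deposited values are log2 probe-set values, with array medians from 6.61 to 6.72, and every array correlated with the others of its group at 0.991 or more over all genes. Grb2 itself was lower in Grb2_cKO, with control values of 8.68, 8.65, 8.61 and 8.66 and Grb2_cKO values of 8.36, 8.17, 8.22 and 8.06 in replicates 1 to 4 (log2 fold change -0.45, SE 0.0744, limma adjusted p = 0.0017); whether its probe set covers the deleted exons could not be settled from the sources used here. Over all genes 6227 passed an adjusted p of 0.05 in limma, or 28.1%. The groups were not balanced for sex: averaged over Eif2s3y, Kdm5d and Uty, Y-linked expression was between 9.94 and 10.1 in each Grb2_cKO embryo and in control replicate 3, and between 4.09 and 4.24 in the other controls. Markers of red cells were also higher in Grb2_cKO. With the Y-linked mean as covariate Grb2 was at -0.405 (SE 0.126, limma adjusted p = 0.1) and did not pass. With the mean of the erythroid markers as covariate it was at -0.566 (SE 0.178, limma adjusted p = 0.145) and did not pass either. Against control replicate 3 alone Grb2 was at -0.41. The median difference over all genes was 0.00581 on the log2 scale.

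Among the activators of the family, Mycn stood apart from its paralogues. Its log2 values were 7.92, 8.01, 8.0 and 8.30 in control replicates 1 to 4, and 7.04, 7.07, 6.79 and 6.83 in Grb2_cKO replicates 1 to 4. Every Grb2_cKO embryo was below every control, by at least 0.85, and Grb2_cKO replicates 3 and 4 were the lowest. This is a log2 fold change of -1.13 (SE 0.102, 95% interval -1.35 to -0.90), or 45.8% of the control level (39.2% to 53.7%). Ordered from the largest fall, Mycn ranked at 69 among the 22180 genes. In RNA of a whole kidney, fewer cells that express a gene and less of its RNA per cell cannot be told apart, and this holds for every gene below.

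Myc, the founding member of the family, was at 9.87, 10.06, 10.38 and 10.34 in the controls and at 9.91, 9.96, 9.87 and 10.05 in Grb2_cKO. The Grb2_cKO values lay within the range of the controls, with the lowest value the same in both groups. The spread was uneven, with an SD of 0.242 among controls and 0.0755 among Grb2_cKO embryos. The difference was -0.21 (SE 0.114, 95% interval -0.47 to 0.04), so without a covariate these arrays allow a Myc level between 72.4% and 103% of the control. With the Y-linked or the erythroid mean as covariate the interval lay below 0, as given below. The Y-linked fit rests largely on control replicate 3, the 1 control with high Y-linked values and the control with the highest Myc value. The embryos that set the control range were replicate 1 at the bottom and replicates 3 and 4 at the top. Without control replicate 1 the difference was -0.31 (SE 0.0954) and past the threshold, and without control replicate 3 it was -0.14 (SE 0.114).

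Mycl, the third paralogue, was at 6.86, 6.99, 6.80 and 6.84 in the controls and at 6.67, 6.72, 6.62 and 6.61 in Grb2_cKO. All 4 Grb2_cKO values were below all controls, by a gap of 0.08. The difference was -0.22 (SE 0.0678, 95% interval -0.37 to -0.07). It passed the threshold with all 8 arrays, and not without control replicate 1 (-0.22), 2 (-0.18) or 4 (-0.23), nor without Grb2_cKO replicate 1 (-0.22), 3 (-0.21) or 4 (-0.20). With all 8 arrays it also did not pass with a trended and robust spread (-0.22, SE 0.077). The Myc difference minus that of Mycl was 0.00485 (SE 0.154), smaller than its error. The Mycn difference minus that of Myc was -0.91 (SE 0.125), and minus that of Mycl it was -0.91 (SE 0.109). Since the values of Mycn and Myc chose the family, the gap between them is a description only. It was smaller with the Y-linked mean as covariate, where Mycn was at -1.07 and Myc at -0.44. After each gene was centred on its control mean, Mycn minus Myc ran from -0.28 to 0.16 in the controls and from -1.11 to -0.78 in Grb2_cKO. Levels of different probe sets were not compared with each other, only their differences between the groups.

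**Figure D1:**
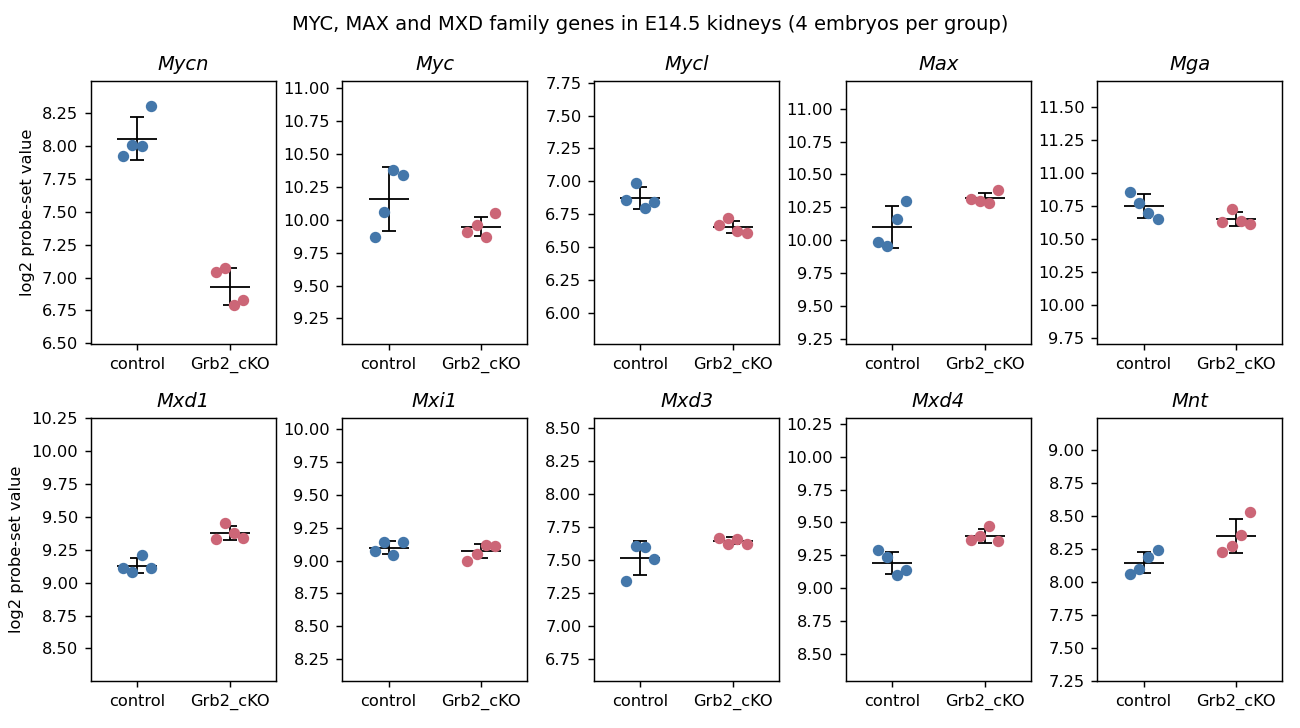
Log2 probe-set value of each member in each embryo, controls in blue and Grb2_cKO in red, with the mean and SD of 4 embryos per group; every panel spans the same log2 range around the gene's own level. Mycn shows the widest gap, 0.85 between the nearest embryos of the groups, while the Myc values of Grb2_cKO lie inside the control range.

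Max, the obligate partner of the MYC and MXD proteins, was at 9.99, 9.96, 10.16 and 10.30 in the controls and at 10.31, 10.30, 10.28 and 10.38 in Grb2_cKO. The Grb2_cKO embryos were tightly grouped, with an SD of 0.0422 against 0.16 in the controls, and overlapped with control replicate 4. The difference was 0.21 (SE 0.0857, 95% interval 0.02 to 0.40) and did not pass the threshold. Without control replicate 4 it was 0.28 (SE 0.0772) and did. The difference of Max exceeded that of Mycn by 1.34 (SE 0.0901), and Max minus Mycn was between 1.19 and 1.5 above the control mean in every Grb2_cKO embryo.

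Mga, whose protein holds both a MAX-binding domain and a T-box, was at 10.86, 10.77, 10.70 and 10.65 in the controls and at 10.63, 10.73, 10.64 and 10.61 in Grb2_cKO. The groups overlapped, and the difference was -0.09 (SE 0.0696, 95% interval -0.25 to 0.06).

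Of the MAX-binding repressors, Mxd1 and Mxd4 were higher in every Grb2_cKO embryo than in any control. Mxd1, known to be induced as cells leave the cycle and differentiate, was at 9.11, 9.08, 9.21 and 9.11 in the controls and at 9.33, 9.45, 9.38 and 9.34 in Grb2_cKO. The gap between the groups was 0.12 and the SD was alike in both, 0.0558 and 0.0557. The difference was 0.25 (SE 0.0641, 95% interval 0.10 to 0.39), or 119% of the control level. It passed the threshold with all 8 arrays and in each leave-one-out fit except the one without control replicate 2 (0.23).

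Mxd4 was at 9.29, 9.24, 9.10 and 9.14 in the controls and at 9.37, 9.40, 9.47 and 9.36 in Grb2_cKO, with a gap of 0.07. The difference was 0.21 (SE 0.0686, 95% interval 0.05 to 0.36). It passed the threshold with all 8 arrays and without control replicate 1, and not without any other single embryo, where it ran from 0.175 to 0.22. The embryos whose removal ended that call were control replicates 2, 3 and 4 and each of the 4 Grb2_cKO replicates. With all 8 arrays the call was also not made after each array was centred on its median (0.20, SE 0.0704). The Mxd1 difference minus that of Mxd4 was 0.04 (SE 0.073), smaller than its error.

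Mnt, a widely expressed MYC antagonist, was at 8.06, 8.10, 8.19 and 8.24 in the controls and at 8.23, 8.27, 8.36 and 8.53 in Grb2_cKO. Control replicate 4 overlapped with Grb2_cKO replicate 1. The difference was 0.20 (SE 0.0827, 95% interval 0.02 to 0.39) and did not pass the threshold. Mxd3, known for its expression in dividing cells, was at 7.34, 7.61, 7.60 and 7.51 in the controls and at 7.67, 7.62, 7.66 and 7.62 in Grb2_cKO. The groups were apart by 0.01 only, and control replicate 1 was well below the rest. The difference was 0.13 (SE 0.0758, 95% interval -0.04 to 0.30). Mxi1 was at 9.07, 9.14, 9.04 and 9.14 in the controls and at 9.0, 9.05, 9.12 and 9.11 in Grb2_cKO, with the groups overlapping (-0.02, SE 0.0632, 95% interval -0.17 to 0.12). Mxi1 was the only member with a second probe set of 1 symbol, and on it the difference was -0.05 (SE 0.134).

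In all, 2 members were lower past the threshold (Mycn and Mycl), 2 were higher (Mxd1 and Mxd4) and 6 did not pass it. Over all genes 14.3% were lower and 13.7% higher past the threshold, and since the members were chosen on this contrast nothing is read from their share. The groups did not overlap for 5 members, beside 31.2% of all genes. For 9 of the 10 the difference was within 0.5 on the log2 scale in either direction, and the exception was Mycn. The median difference of the members was 0.05, with 5 above 0 and 5 below.

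Y-linked and erythroid markers moved with the groups, so the differences of the members were also computed with the mean of each as a covariate. Mycn was at -1.07 with the Y-linked mean as covariate and at -1.57 with the erythroid mean, and against control replicate 3 alone, the 1 control with high Y-linked values, it was at -1.06. Over the 17 alternatives it lay between -1.57 and -1.05. Myc moved further down, to -0.44 with the Y-linked mean, -0.59 with the erythroid mean and -0.43 against control replicate 3 alone, and passed the threshold in none of those 3. Mycl was at -0.14 and -0.22 with the 2 covariates and Mxd1 at 0.17 and 0.29, no longer past the threshold. Mxd4 was at 0.30 and 0.40, with intervals from 0.05 to 0.55 and from 0.05 to 0.74, and also not past it. With the erythroid mean as covariate, the differences of Max (-0.03), Mxd3 (-0.02), Mxi1 (0.04) and Mga (0.08) had the opposite sign, each with an interval that spans 0. Over the 17 alternatives Mxi1 was negative in 13. The Y-linked fit and the fit against control replicate 3 alone both rest largely on that 1 control embryo, so they are not separate checks. The part of sex or red cell content in the members' differences was not tested beyond these fits.

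**Figure D2:**
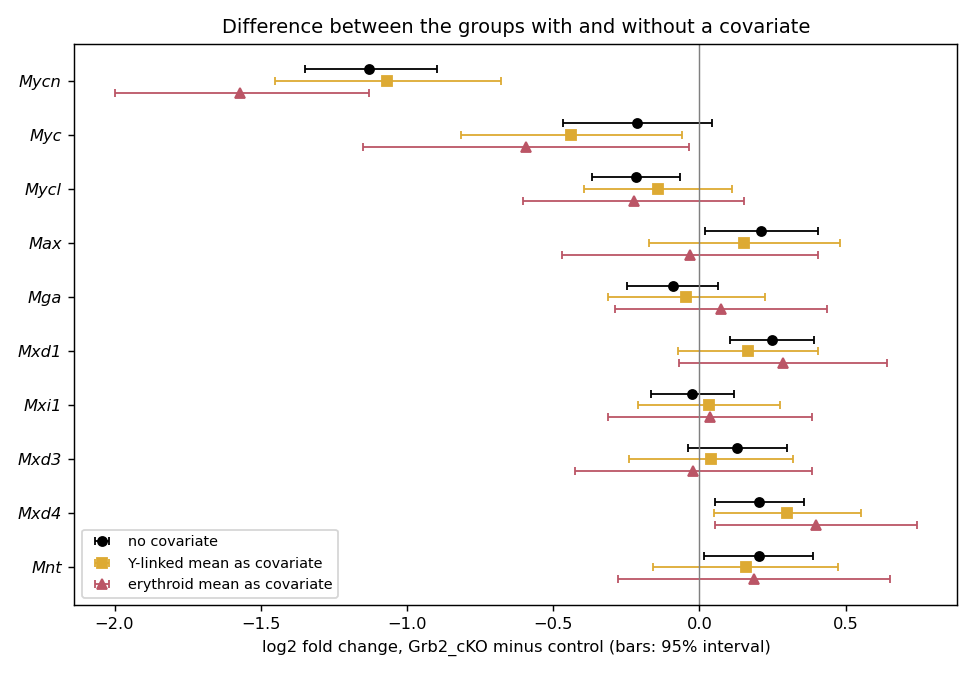
Log2 fold change of each member, Grb2_cKO minus control, with its 95% interval, from the model without a covariate (black circles), with the Y-linked mean (yellow squares) and with the erythroid mean (red triangles). Mycn lies at -1.13, -1.07 and -1.57, and the Myc interval spans 0 only in the model without a covariate. The Y-linked fit rests largely on control replicate 3.

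The genes whose profile over the 8 arrays was most like that of Mycn were found by the root mean square difference between profiles centred on their own means. The closest was Ism1, which codes for a secreted protein, at 0.0573, followed by the homeobox gene Hoxb9 at 0.0617 and Dusp5, a phosphatase of ERK, at 0.0727. Gldn was at 0.0842, 2610318N02Rik at 0.0901 and Uncx, a homeobox gene of the nephron progenitors, at 0.108. The median over all genes was 0.596. Since likeness to Mycn chose these genes, their differences are a description: -1.16 for Ism1, -1.12 for Hoxb9, -1.09 for Dusp5, -1.15 for Gldn, -1.05 for 2610318N02Rik and -1.29 for Uncx. Ism1 was at 8.68, 8.73, 8.81 and 8.96 in the controls and at 7.73, 7.70, 7.58 and 7.54 in Grb2_cKO. Control replicate 4 was the highest and Grb2_cKO replicates 3 and 4 the lowest, as for Mycn, an order favoured by the choice on likeness. Hoxb9 was at 9.88, 9.96, 9.98 and 10.30 in the controls and at 8.98, 8.95, 8.90 and 8.79 in Grb2_cKO.

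Genes of the pathway that were not members were taken from lists drawn up with earlier results of these arrays known, and their p-values come from the fit over all 22180 genes. On the 9 lists, 132 of 144 genes were measured and 81 passed the threshold, beside 28.1% of all genes. Among relatives of MYC, proteins that bind MYC or the E-box, and RNAs of the MYC loci, 2 of 9 measured genes fell and 0 rose, with a median of -0.03. Pvt1, the long noncoding RNA next to Myc, fell from 7.14, 7.32, 7.23 and 7.03 in the controls to 6.62, 6.50, 6.16 and 6.31 in Grb2_cKO (log2 fold change -0.78, SE 0.109, limma adjusted p = 0.000686). The 2 groups of Pvt1 were well apart, while those of its neighbour Myc overlapped. Mycbp, which codes for a MYC-binding protein, fell by 0.33 (SE 0.0723, limma adjusted p = 0.00726), a call not made with the Y-linked mean (-0.24), with the erythroid mean (-0.17) or against control replicate 3 alone (-0.24). The Pvt1 call was kept with the Y-linked mean, and not with the erythroid mean (-1.09, limma adjusted p = 0.0689) or against control replicate 3 alone (-0.84, limma adjusted p = 0.0792).

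Bmyc, a shorter relative of Myc, was at 10.28, 10.51, 11.08 and 11.14 in the controls and at 11.31, 11.08, 11.31 and 11.36 in Grb2_cKO. Its difference of 0.51 (SE 0.183) did not pass the threshold with all 8 arrays (limma adjusted p = 0.0636), and did without control replicate 3 (0.62) or control replicate 4 (0.64). With all 8 arrays it also passed after quantile normalization (0.56), without the dimmest genes (0.51), with a trended and robust spread (0.51) and with the mean of its probe sets, where it was smaller (0.34, SE 0.0988). In the MLX branch, the parallel network in which MLX takes the place of MAX, 0 of 3 genes passed. Mlx was at 9.32, 9.47, 9.85 and 9.89 in the controls and at 9.98, 9.87, 9.89 and 9.99 in Grb2_cKO, a difference of 0.30 (SE 0.126, limma adjusted p = 0.106) that passed without control replicate 4 (0.39). Mlxip was at 0.12 (SE 0.0717) and Mlxipl, the glucose-responsive partner of MLX, at 0.03 (SE 0.0864).

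Among the cofactors through which the family acts, more genes fell than rose, beside 14.3% lower and 13.7% higher over all genes. Of 15 measured MYC coactivators, 5 fell and 1 rose, with a median of -0.06 beside 0.00581 over all genes. Ruvbl1, an ATPase of the TIP60 and INO80 complexes, fell by 0.79 (SE 0.0853, limma adjusted p = 0.00022). On the same list Ruvbl2 (-0.002), Trrap (0.03), Ep400 (0.02) and Kat5 (0.08), named after their values were seen, did not pass the threshold. Paf1, a subunit of the elongation complex of that name, fell by 0.49 (SE 0.0743), and Wdr5, a histone methyltransferase subunit that binds MYC, fell by 0.38 (SE 0.0914). The acetyltransferase gene Ep300 rose by 0.30 (SE 0.0727, limma adjusted p = 0.012).

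On the SIN3 list, the corepressor of the MXD proteins and MNT, 7 of 14 measured genes fell and 0 rose, with a median of -0.27. Ing1 fell by 0.43 (SE 0.0666), the deacetylase gene Hdac2 by 0.41 (SE 0.0854), Suds3 by 0.38 (SE 0.0597) and Brms1 by 0.37 (SE 0.0706). The list of the MGA complex shares 2 genes with the SIN3 list and 1 with the coactivators. Of its 12 genes 7 fell and 1 rose, with a median of -0.275. E2f6 fell by 0.48 (SE 0.0988), L3mbtl2 by 0.43 (SE 0.0806) and Cbx3 by 0.43 (SE 0.0688), while Rybp rose by 0.28 (SE 0.0734, limma adjusted p = 0.017) and was named after its value was seen. Of the genes that control the stability of MYC proteins, 5 of 13 measured fell and 1 rose, with a median of -0.19. Cip2a, an inhibitor of the phosphatase that marks MYC for breakdown, fell by 0.92 (SE 0.0713, limma adjusted p = 4.98e-05). Aurka, the kinase that shields the MYCN protein, fell by 0.57 (SE 0.0852) and the deubiquitinase gene Usp37 by 0.50 (SE 0.0913). The ubiquitin ligase gene Fbxo32 rose by 0.49 (SE 0.115, limma adjusted p = 0.0103). Also on this list, the ubiquitin ligase gene Fbxw7 fell by 0.33 (SE 0.0923, limma adjusted p = 0.0222) and Plk1 by 0.37 (SE 0.0909). Skp2 (-0.19), Huwe1 (-0.04) and Gsk3b (0.04) did not pass the threshold. These further genes were named after their values were seen.

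Most of these cofactor calls were not made with the Y-linked or the erythroid mean as covariate. Over all genes the calls went from 6227 to 1246 and 336 in those fits. Each covariate overlaps with the groups, which widens the intervals. With the Y-linked mean, 1 of 6 calls among coactivators was kept, 0 of 7 on the SIN3 list, 0 of 8 on the MGA complex list and 2 of 6 on the turnover list, with medians of -0.112, -0.209, -0.314 and -0.184. With the erythroid mean 0, 0, 1 and 1 were kept in the same order, with medians of -0.247, -0.198, -0.467 and -0.345, and Wdr5 was then at -0.72 (SE 0.188). Against control replicate 3 alone 0, 0, 0 and 1 were kept.

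The largest pathway list held genes that MYC is known to activate, in ribosome assembly, nucleotide synthesis and chaperones. Of 42 measured, 34 fell and 0 rose, with a median of -0.465, beside 14.3% lower over all genes and an all-gene median of 0.00581. Gnl3, a nucleolar GTPase of stem cells, was at 10.12, 10.02, 9.99 and 10.06 in the controls and at 9.10, 9.19, 8.96 and 8.89 in Grb2_cKO, a fall of 1.01 (SE 0.0801, limma adjusted p = 5.42e-05). Nop58, a core protein of the box C/D ribonucleoproteins, fell by 0.97 (SE 0.0836), Ppat, the first enzyme of purine synthesis, by 0.91 (SE 0.0661), and the RNA helicase gene Ddx21 by 0.84 (SE 0.0701). These are the 4 genes of smallest p on the list, and over the whole list the groups did not overlap for 33 of 42, beside 31.2% of all genes. The list mean per embryo ran from 9.94 to 10.09 in the controls and from 9.46 to 9.57 in Grb2_cKO, with Grb2_cKO replicates 3 and 4 the lowest. With the Y-linked mean as covariate 16 of the 34 calls were kept, with the erythroid mean 9, and against control replicate 3 alone 5. The medians in those fits were -0.513, -0.685 and -0.508.

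Of the 36 activated targets with a promoter entry, 8 held CACGTG in the 250 bases before the start, or 22.2%, beside 7.83% of all measured genes. All 8 fell, as did 23 of the 28 without it. They are named for the motif and not by the size of their difference. The window nearest the start is shown for each, with CACGTG in capitals and up to 17 bases on either side, from RefSeq GRCm38.p6 and on the gene's own strand: Hspd1 at chr1:55088301-55088340 on the minus strand, Nme1 at chr11:93968273-93968307 on the minus strand, Prmt3 at chr7:49778328-49778357 on the plus strand, Nop2 at chr6:125131806-125131845 on the plus strand, Eif4e at chr3:138527187-138527226 on the plus strand, Ldha at chr7:46845739-46845778 on the plus strand, Eif4a1 at chr11:69672590-69672629 on the minus strand and Cdk4 at chr10:127063507-127063534 on the plus strand.
Hspd1: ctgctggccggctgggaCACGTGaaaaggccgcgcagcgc
Nme1: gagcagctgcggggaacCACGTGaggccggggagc
Prmt3: gccccgccccctacgccCACGTGacccgga
Nop2: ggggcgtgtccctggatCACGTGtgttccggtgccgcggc
Eif4e: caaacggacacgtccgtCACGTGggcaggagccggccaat
Ldha: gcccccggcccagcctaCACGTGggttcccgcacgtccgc
Eif4a1: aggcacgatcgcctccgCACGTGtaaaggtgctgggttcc
Cdk4: tgcgcaagggtgaagatCACGTGtccag
Hspd1, the mitochondrial chaperonin, fell by 0.96 (SE 0.089, limma adjusted p = 0.000119) and Nme1, a nucleoside diphosphate kinase, by 0.74 (SE 0.134). Prmt3, an arginine methyltransferase of ribosomal proteins, fell by 0.55 (SE 0.074), Nop2 by 0.45 (SE 0.084), the cap-binding factor gene Eif4e by 0.44 (SE 0.0985) and Ldha, the lactate dehydrogenase gene, by 0.38 (SE 0.0702). The smallest of the 8 differences were those of Eif4a1 (-0.34, SE 0.111, limma adjusted p = 0.0454) and the cyclin-dependent kinase gene Cdk4 (-0.21, SE 0.0589, limma adjusted p = 0.0218).

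Of 9 measured genes that MYC is known to repress, 4 rose and 0 fell, with a median of 0.21. The 4 that rose are the genes of smallest p on the list. Cdkn1a (0.21), Cdkn1b (-0.03), Cdkn2b (0.06), Cebpa (0.15) and Clu (-0.31) did not pass the threshold, and were named after their values were seen. Ndrg1, named for its repression by MYCN, was at 8.43, 8.55, 8.53 and 8.35 in the controls and at 9.20, 8.89, 9.48 and 9.54 in Grb2_cKO, a rise of 0.81 (SE 0.134, limma adjusted p = 0.00163). Grb2_cKO replicates 3 and 4 were the highest for Ndrg1, as they were for the mean of the podocyte markers (9.80 and 9.88), and they were the lowest for Mycn and for the mean of the nephron progenitor markers (8.89 and 8.99). Cdkn1c, an inhibitor of cyclin-dependent kinases, rose by 0.62 (SE 0.122, limma adjusted p = 0.00404) and Thbs1, a matrix glycoprotein gene, by 0.35 (SE 0.075). Ndrg2 rose by 0.36 (SE 0.103, limma adjusted p = 0.0268), a call not made without control replicate 1 (0.353), 2 (0.365) or 4 (0.335), nor without Grb2_cKO replicate 1 (0.343), 3 (0.279) or 4 (0.354). With the Y-linked or the erythroid mean as covariate 0 of the 4 calls were kept, and the medians were 0.185 and 0.193. With the erythroid mean Thbs1 was at 0.65 (SE 0.149). Against control replicate 3 alone 0 of the 4 were kept too.

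**Figure D3:**
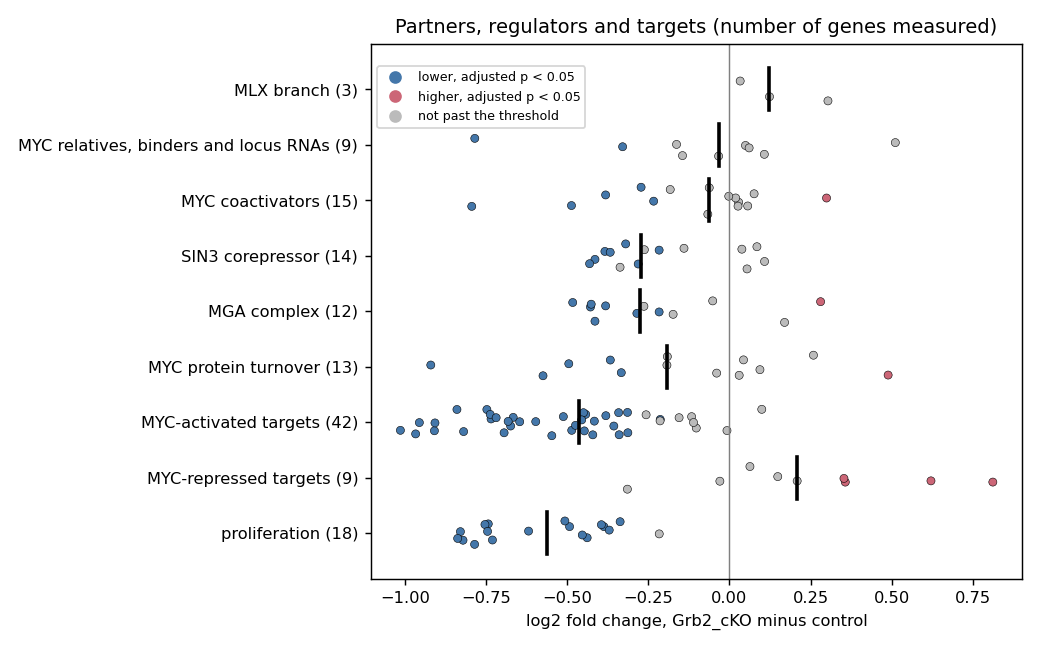
Log2 fold change of every measured gene on 9 lists of partners, regulators and targets of the family, with blue for lower and red for higher past the threshold, grey for the rest, and a black bar at the list's median. The activated targets (median -0.465) and the proliferation genes (median -0.56) have their medians to the left of 0 and the repressed targets (median 0.21) to the right, with 1 activated target above 0 and 2 repressed targets below it.

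Markers of proliferation and of cell types moved with the groups as well. The part of cell content in the Mycn and target values was not tested. Of 18 measured proliferation genes 17 fell and 0 rose, with a median of -0.56. The list mean was from 11.06 to 11.14 in the controls and from 10.40 to 10.62 in Grb2_cKO, with replicates 3 and 4 the lowest, as for Mycn. Of the 17 calls 9 were kept with the Y-linked mean, 5 with the erythroid mean and 0 against control replicate 3 alone. On every cell type list given here and below, 0 measured genes were among the 25% of genes with the lowest mean over the 8 arrays. Of the nephron progenitor markers 11 of 15 fell and 1 rose (median -0.97), and the list mean ran from 9.95 to 10.13 in the controls and from 8.89 to 9.36 in Grb2_cKO. In the ureteric tip 11 of 13 fell and 1 rose (median -1.23), with list means from 8.75 to 9.0 and from 7.53 to 7.82. In the ureteric trunk 10 of 18 fell and 1 rose (median -0.40). Stroma markers rose for 12 of 14 (median 0.665), and podocyte markers for 7 of 8 (median 0.82), with the highest podocyte means in Grb2_cKO replicates 3 and 4. The podocyte list shares 1 gene with the nephron progenitor list, Wt1, which is the riser counted on both. It shares 1 with the stroma list, Tcf21, which did not pass the threshold.

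Macrophage and leukocyte markers rose for 9 of 12, with list means from 7.21 to 7.39 in the controls and from 7.98 to 8.39 in Grb2_cKO. Erythroid markers rose for 5 of 8, with list means from 6.26 to 6.75 and from 7.07 to 7.63. Endothelial markers rose for 8 of 12, and of 7 measured neural markers 2 rose and 1 fell. Over all genes 13.7% rose and 14.3% fell. The calls kept with the Y-linked mean, with the erythroid mean and against control replicate 3 alone were 7, 4 and 3 of 12 for nephron progenitor markers, 10, 9 and 9 of 12 for the ureteric tip, and 6, 4 and 1 of 11 for the ureteric trunk. They were 6, 0 and 0 of 12 for stroma, 1, 1 and 1 of 7 for podocytes, and 4, 2 and 2 of 9 for macrophages and leukocytes. For erythroid markers they were 1, 0 and 1 of 5, for endothelial markers 0, 0 and 0 of 8, and for neural markers 2, 1 and 1 of 3.

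**Figure D4:**
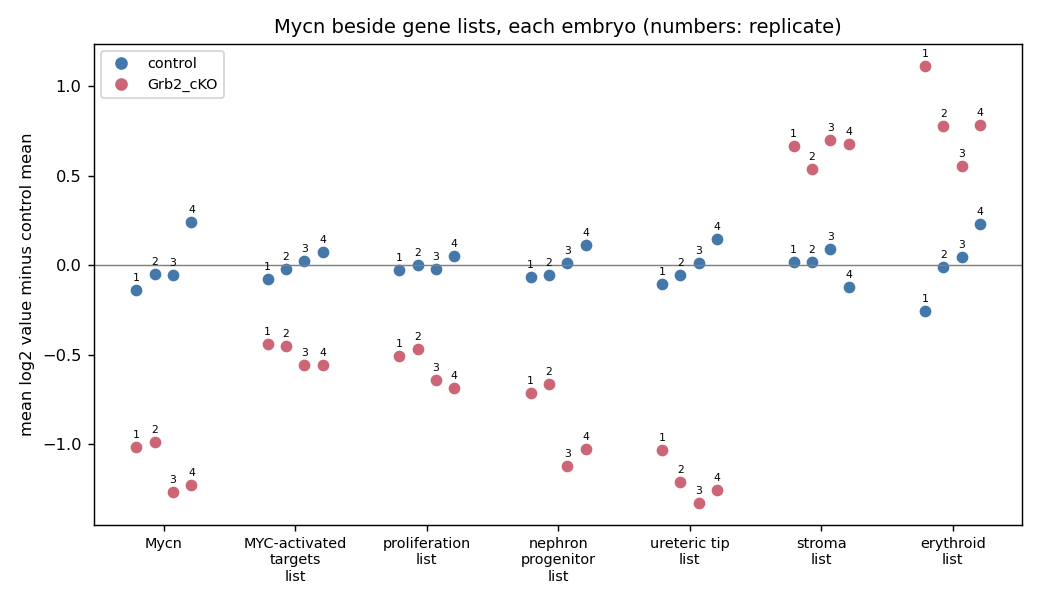
Mycn and the means of 6 gene lists in each embryo, as log2 value minus the mean of the controls, with controls in blue, Grb2_cKO in red and the replicate number above each point. Mycn and the activated targets, proliferation, nephron progenitor and ureteric tip lists lie below 0 in all 4 Grb2_cKO embryos, and the stroma and erythroid lists lie above 0.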

How the data were processed

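RNA of 8 kidney samples, 200 ng each, was measured on 1-colour arrays. The deposited values used are log2 probe-set values made by the authors with the Transcriptome Analysis Console, per the submitters' processing notes, with no version. How background was corrected, probes summarized and arrays normalized was not given in the sources used here, nor are scan dates or other batch records. That the scale is log2 was judged by the range of values, which ran from 1.25 to 14.08. Array values carry no read depth, and the number of arrays limits the precision.

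Of 41345 probe sets, 23521 had 1 gene symbol in the platform's annotation, 1814 had several and 16010 had none. For 23328 of those with 1 symbol, the symbol was taken from RefSeq through the Entrez identifier, whether or not it differed. For the 1082 genes with several probe sets the probe set of highest mean across the 8 arrays was used, which left 22180 genes. The 2 groups were compared with limma 3.58.1 in R 4.3.3, with empirical Bayes moderation, no covariate, Benjamini-Hochberg adjustment over all 22180 genes and a threshold of 0.05. Differences are Grb2_cKO minus control with the moderated SE. The model was tested on simulated data.

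The members and lists were chosen with earlier results of these data known. Of 271 genes on the 20 lists, 250 were measured; the remaining ones were not analysed here. Genes named were the members, Grb2, the sex-linked genes, up to 4 genes of smallest p per list, every gene of a list of 3 or fewer, and the 6 genes closest to Mycn, and any other is marked. Replicate numbers follow the order of the records and pair nothing. Promoters came from RefSeq GRCm38.p6 (32851 windows of 27025 genes), and no coordinates are given for probe sets. Alternative settings were a covariate (the Y-linked or the erythroid mean), control replicate 3 as sole control, each embryo left out in turn, quantile normalization, median centring of each array, removal of the dimmest 25% of genes (mean below 5.69), averaging over the probe sets of a gene, array weights, and a robust spread with a trend.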

Additional observations from a re-analysis of the deposited data

How the results depend on the processing

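Over all genes, 6227 passed the threshold. With the Y-linked mean as covariate 1246 passed, with the erythroid mean 336, and with control replicate 3 as the only control, its spread taken from the Grb2_cKO group, 285. Of the members, 4 passed with all arrays and 1, Mycn, under each of those 3 alternatives. Leaving out 1 embryo at a time gave 1 to 4 members and 4894 to 5955 genes. The pathway lists had 81 genes past the threshold, 29 with the Y-linked mean, 16 with the erythroid mean, 6 with control replicate 3 as the only control, and 73 to 84 without 1 embryo. Among the named genes 2 sex-linked ones turned sign: Xist was at 0.151 with the Y-linked mean as covariate and at 0.0475 against control replicate 3 alone, and Eif2s3y was at -0.0491 with the Y-linked mean, as that covariate and that control hold the sex difference fixed. Of the 80 named genes that were not members 74 passed, and 31, 49 and 51 of the calls were lost under the Y-linked, erythroid and single-control alternatives, against 0 to 4 under each other one. Each covariate overlaps with the groups, which widens the intervals, and 4 embryos per group limit every value. The Y-linked and the single-control alternatives both rest largely on control replicate 3 and are not separate checks. No paired analysis was possible because the labels carry no replicate numbers.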
